A study of Mus musculus with 23 samples.

Results

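Heat shock proteins and their cochaperones were followed as a group of 10 genes: the inducible Hsp70 genes Hspa1a and Hspa1b, their neighbour Hspa1l, the constitutive Hsp70 gene Hspa8, the Hsp90 gene Hsp90aa1, the Hsp110 gene Hsph1, the Hsp40 cochaperone Dnajb1, the small heat shock protein genes Hspb1 and Hspb8, and the cochaperone Bag3. Every probe annotated to one of these symbols was taken, which gave 19 of the 45281 probes on the array. Of these, 17 had a signal above background on at least 3 arrays and were tested, together with 20585 transcripts in all. The 2 others, a probe of Hsp90aa1 and a probe of Hspb1, had no array above background and are not described further. Each gene is represented below by its brightest probe, and the other probes are given where their direction or call differed.

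The study compared vessels of male C57BL/6J wild-type mice, which started treatment at 12 weeks of age. Hypertensive mice received angiotensin II (AngII) from a subcutaneous osmotic minipump at 490 ng/kg/min for 14 days, and normotensive Sham mice received its vehicle in the same way. RNA of thoracic aorta (3 AngII and 3 Sham arrays), abdominal aorta (3 and 3) and mesenteric arteries (6 and 5) was hybridised to Illumina WG-6 v2.0 BeadChips, and each array carried RNA pooled from 2 vessels of one type and treatment. No label links pools to mice, so arrays of different vessels were treated as independent and p-values measure the spread between pools. Arrays are numbered here only to name them.

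Heat shock proteins are chaperones that bind unfolded or partly folded proteins. Hsp70 proteins work in cycles of ATP hydrolysis that Hsp40 proteins start and nucleotide exchange factors such as Hsph1 and Bag3 end, Hsp90 completes the folding of many kinases and receptors, and small heat shock proteins hold unfolding proteins until Hsp70 takes them over. Many of these genes are switched on by heat shock factor 1 (HSF1), which is released from chaperones when proteins unfold and binds heat shock elements, arrays of the unit GAA and its reverse TTC, in their promoters. In arterial smooth muscle, small heat shock proteins and Bag3 are also known for their association with actin filaments and with the turnover of proteins damaged by mechanical load.

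Hspa1b, Hspa1a and Hspa1l lie next to each other in that order on mouse chromosome 17, with Hspa1l on the opposite strand and head to head with Hspa1a. The 250 bases before the RefSeq start of these 3 genes, which were the members called in the thoracic aorta, are printed with those of Hspb1, which passed no AngII test (RefSeq, GRCm38.p6; chr17:34972157-34972406 on the minus strand for Hspa1a, chr17:34959239-34959488 on the minus strand for Hspa1b, chr17:34972453-34972702 on the plus strand for Hspa1l and chr5:135887669-135887918 on the plus strand for Hspb1). Capitals mark a pair of facing heat shock units, GAANNTTC or TTCNNGAA, each of which reads the same on both strands.
Hspa1a: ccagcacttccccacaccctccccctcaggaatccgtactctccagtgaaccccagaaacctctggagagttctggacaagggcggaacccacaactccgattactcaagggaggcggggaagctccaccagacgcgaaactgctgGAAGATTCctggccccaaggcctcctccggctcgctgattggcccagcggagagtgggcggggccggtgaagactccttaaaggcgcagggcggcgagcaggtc
Hspa1b: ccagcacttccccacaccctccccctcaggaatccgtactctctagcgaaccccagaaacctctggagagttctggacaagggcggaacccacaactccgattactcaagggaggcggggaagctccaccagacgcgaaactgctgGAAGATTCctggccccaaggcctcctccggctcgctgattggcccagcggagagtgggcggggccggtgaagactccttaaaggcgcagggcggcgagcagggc
Hspa1l: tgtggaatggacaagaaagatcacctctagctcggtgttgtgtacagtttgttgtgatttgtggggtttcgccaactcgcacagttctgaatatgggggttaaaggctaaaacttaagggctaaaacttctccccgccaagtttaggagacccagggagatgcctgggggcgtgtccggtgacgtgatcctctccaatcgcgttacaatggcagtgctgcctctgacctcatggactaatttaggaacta
Hspb1: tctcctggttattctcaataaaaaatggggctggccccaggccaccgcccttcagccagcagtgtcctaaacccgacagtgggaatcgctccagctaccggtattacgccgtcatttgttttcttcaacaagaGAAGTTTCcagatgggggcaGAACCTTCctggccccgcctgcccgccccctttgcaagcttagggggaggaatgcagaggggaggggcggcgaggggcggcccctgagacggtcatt
Hspa1a and Hspa1b carried the same pair 104 bases before the start, Hspb1 carried 2 pairs, and the Hspa1l window held none. The windows of Hspa1a and Hspa1b, with the 50 bases after the start included, were identical at 296 of 300 bases. RefSeq promoters were found for 8 of the 10 genes (not Hspa8 and Hsp90aa1), and a pair stood in the 300 bases of 6 of them (Hspa1a, Hspa1b, Hsph1, Hspb1, Hspb8 and Bag3) and before the start in 4, against 15.1% and 12.8% of 32851 promoters. A longer run of 3 alternating units (GAANNTTCNNGAA or TTCNNGAANNTTC, which contains the pair) was found in the 300 bases of Hsph1 alone among the 8, against 0.603% of promoters. That run lay after the start, and none of the 8 had one before the start, against 0.466% of promoters. The near identity of Hspa1a and Hspa1b also bears on the measurement: whether a probe of one gene also bound RNA of the other could not be read from the files, so the values of these genes are given probe by probe and are uncertain as to which copy they report.

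The arrays were alike in depth, with between 17432 and 18657 transcripts above background on each. All 6 markers of smooth muscle were detected on every array, and 5 of 6 endothelial markers were. Some arrays held RNA of other tissue: 7 of 7 skeletal muscle markers were detected on abdominal Sham array 1 (1 or 2 on the other abdominal arrays), and the pancreatic gene Try4 stood at 14.04 and 12.37 log2 on mesenteric AngII arrays 1 and 2 and at 14.01 on mesenteric Sham array 1, against 7.91 or less on the other mesenteric arrays. Calls in groups that hold these arrays are given with and without them. In bulk vessel RNA, fewer cells of a type and less RNA per cell cannot be told apart.

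In the thoracic aorta, the 3 Hsp70 genes of chromosome 17 fell with AngII, while the constitutive Hsp70, Hsp90, Hsp110 and small heat shock protein genes did not pass the test. Hspa1a, which encodes an Hsp70 that cells make on stress, had log2 signals of 9.70, 10.11 and 9.42 on the Sham arrays and 9.06, 8.84 and 9.02 on the AngII arrays. Every AngII array lay below every Sham array, and the mean fell by 0.77 on the log2 scale (SE 0.16), which is 1.70-fold lower (limma, adjusted p = 0.0131 over all tested transcripts). Hspa1l, whose product is an Hsp70 best known from germ cells, read 6.69, 6.99 and 7.03 in Sham and 6.18, 6.35 and 6.09 with AngII. Again no AngII array reached a Sham array, and the mean was 1.62-fold lower (-0.70, SE 0.12, adjusted p = 0.00536). Hspa1b, the near copy of Hspa1a, read 6.90, 6.94 and 6.39 in Sham and 6.07, 6.13 and 6.25 with AngII. Its groups were apart by the gap between the lowest Sham and the highest AngII array, and the mean was 1.51-fold lower (-0.60, SE 0.15, adjusted p = 0.025).

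These 3 were the members called in the thoracic aorta, all lower, 3 of 10 genes where 17.3% of all tested transcripts were called in either direction and 8.62% were called lower. The AngII and Sham arrays did not overlap, with AngII lower, for 5 of 10 genes, against 20.6% of all tested transcripts. The further 2 were Dnajb1, the J-domain partner that delivers substrates to Hsp70, and Bag3, a nucleotide exchange factor that links Hsp70 to autophagy. Dnajb1 read 10.30, 10.26 and 10.30 in Sham and 10.11, 9.77 and 9.99 with AngII. Its 3 Sham arrays lay close together and above the AngII arrays, with a mean difference of -0.33 (SE 0.11, adjusted p = 0.0598). Bag3 read between 11.25 and 11.33 in Sham and between 11.10 and 11.14 with AngII, a difference of -0.16 (adjusted p = 0.219). The median change of the 10 members was -0.13, against -0.02 for all tested transcripts.

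**Figure D1:**
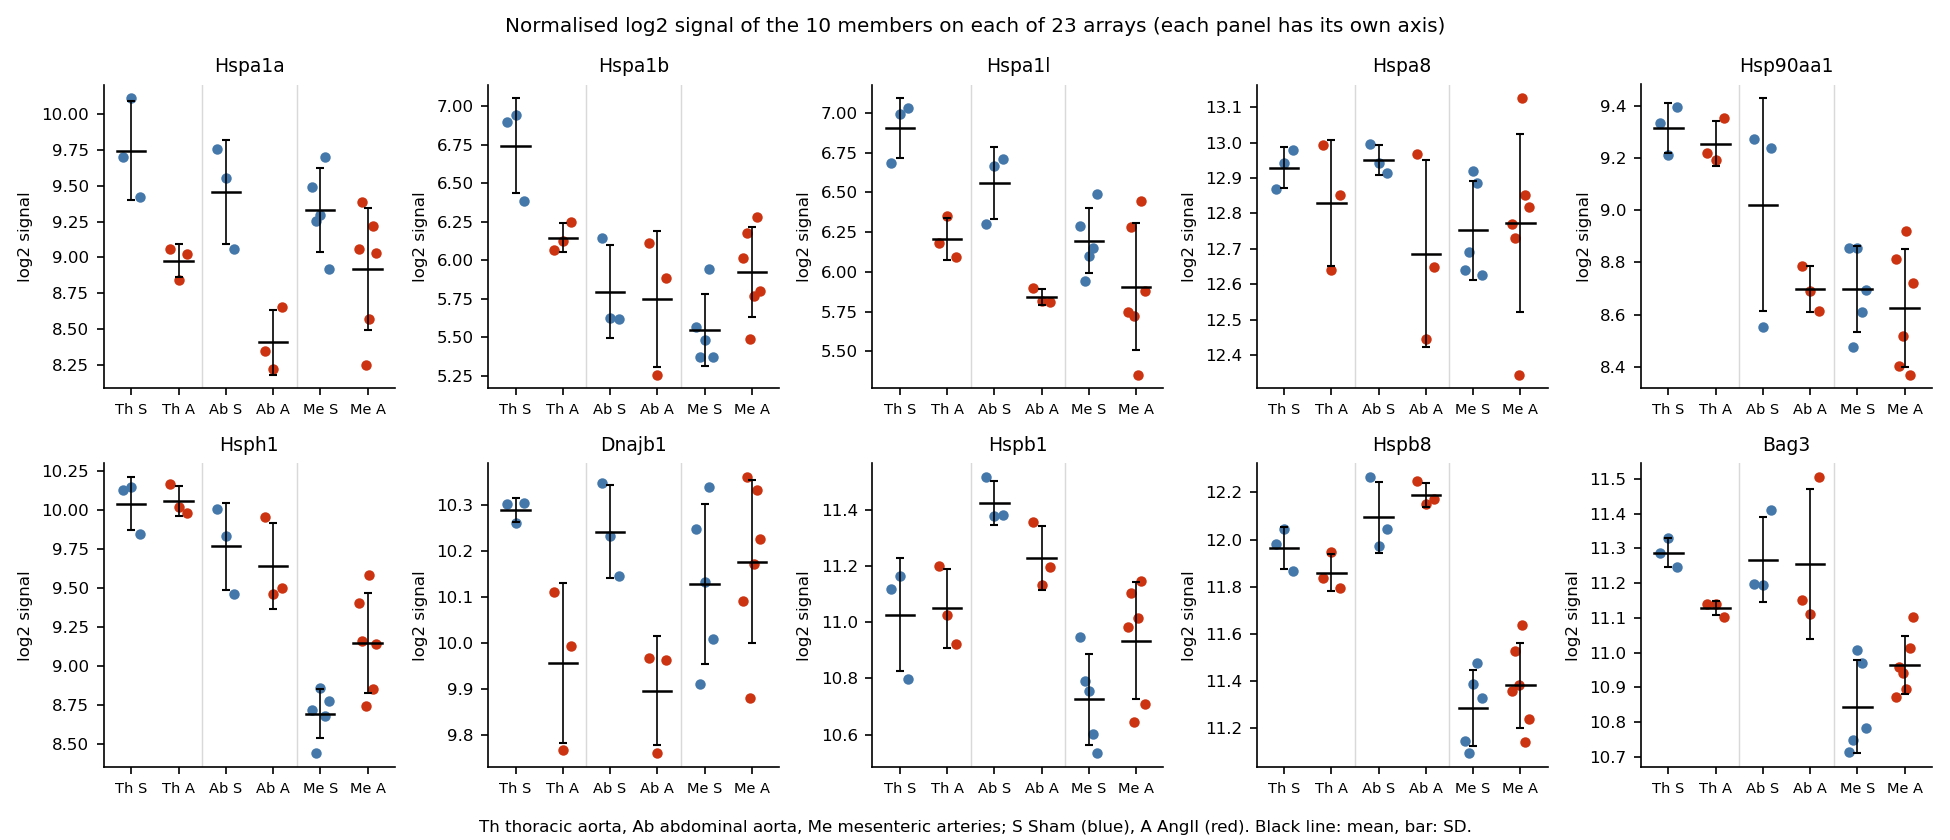
Normalised log2 signal of the brightest probe of each member (vertical axis, one scale per panel) on each of the 23 arrays, by vessel (Th, thoracic aorta; Ab, abdominal aorta; Me, mesenteric arteries) and treatment (S, Sham, blue; A, AngII, red), with the group mean (line) and SD (bar). In both aortic segments the AngII points of Hspa1a, Hspa1l and Dnajb1 lie below all Sham points, and in mesenteric arteries the groups overlap for every member.

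The other thoracic members gave small differences with intervals that include 0. Hspa8, which encodes the Hsc70 present in every cell, differed by -0.10 (95% interval -0.34 to 0.14). Hsp90aa1 differed by -0.06 (-0.27 to 0.15), and Hsph1, which resets Hsp70 by exchanging its nucleotide, by 0.02 (-0.23 to 0.27). Among the small heat shock proteins, Hspb1 differed by 0.02 (-0.26 to 0.30) and Hspb8, the partner of Bag3, by -0.10 (-0.31 to 0.11). None of these 5 genes passed the test, and their AngII and Sham arrays overlapped.

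The other probes of the Hsp70 cluster did not all read alike. A second, dimmer probe of Hspa1a fell by 0.69 in the thoracic aorta (adjusted p = 0.0155), and the third probe read 5.89, 6.20 and 5.52 in Sham and 5.40, 5.41 and 5.44 with AngII. For the third probe no AngII array reached a Sham array, with a difference of -0.45 (adjusted p = 0.0731). The second probe of Hspa1b, which is close to background, read 5.47, 5.85 and 5.23 in Sham and 5.69, 4.89 and 5.41 with AngII. Its groups overlapped, with a difference of -0.19 (adjusted p = 0.588), so the 2 probes of Hspa1b did not give the same call.

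In the abdominal aorta, Hspa1a and Hspa1l fell again and by similar amounts. Hspa1a read 9.76, 9.55 and 9.06 on the Sham arrays and 8.35, 8.22 and 8.65 on the AngII arrays. Every AngII array stayed under the lowest Sham array, and the mean fell by 1.05 on the log2 scale (SE 0.19), 2.07-fold lower (limma, adjusted p = 0.0381). Hspa1l read 6.30, 6.67 and 6.71 in Sham and 5.90, 5.82 and 5.81 with AngII. The 3 AngII arrays lay close together and stood below the Sham arrays, with a mean 1.64-fold lower (-0.72, SE 0.13, adjusted p = 0.0417). The bright probe of Hspa1b read 6.14, 5.63 and 5.62 in Sham and 6.11, 5.26 and 5.89 with AngII. These arrays overlapped, and the difference of -0.04 (95% interval -0.55 to 0.46) did not pass the test.

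The calls were 2 of 10 genes, both lower, where 1.09% of all tested transcripts were called and 0.121% were called lower. The groups did not overlap, with AngII lower, for 4 of 10 genes (Hspa1a, Hspa1l, Dnajb1 and Hspb1), against 11.2% of all tested transcripts. Dnajb1 read 10.35, 10.23 and 10.15 in Sham and 9.97, 9.76 and 9.96 with AngII. Its Sham arrays again stood above its AngII arrays, and the difference was -0.35 (SE 0.12, adjusted p = 0.209). Hspb1, a small heat shock protein of smooth muscle, differed by -0.20 (SE 0.11, adjusted p = 0.444). Hspa8 (-0.26), Hsp90aa1 (-0.32), Hsph1 (-0.13), Bag3 (-0.01) and Hspb8 (0.09) had overlapping arrays and did not pass. With 1 array left out Hsp90aa1 ranged from -0.56 to -0.20, Hspa8 from -0.40 to -0.14 and Hsph1 from -0.29 to -0.0077, with none called. Of the 10 differences 9 were negative, with a median of -0.23 against -0.02 for all tested transcripts.

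The dim second probe of Hspa1b read 5.39, 5.07 and 5.21 on abdominal Sham arrays and was not above background on any of the 3 AngII arrays. Its signal was therefore only bounded with AngII, and Sham was at least 1.13-fold higher. This bound was taken against the higher of the probe's own signal and the lowest detected signal on each AngII array, and was not itself tested. The limma test, which used the undetected AngII signals as measured, gave an adjusted p of 0.0417. The second probe of Hspa1a fell by 0.72 (adjusted p = 0.115), but it was above background on only 1 of 3 AngII arrays. The third was above background on only 1 of 6 abdominal arrays.

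**Figure D2:**
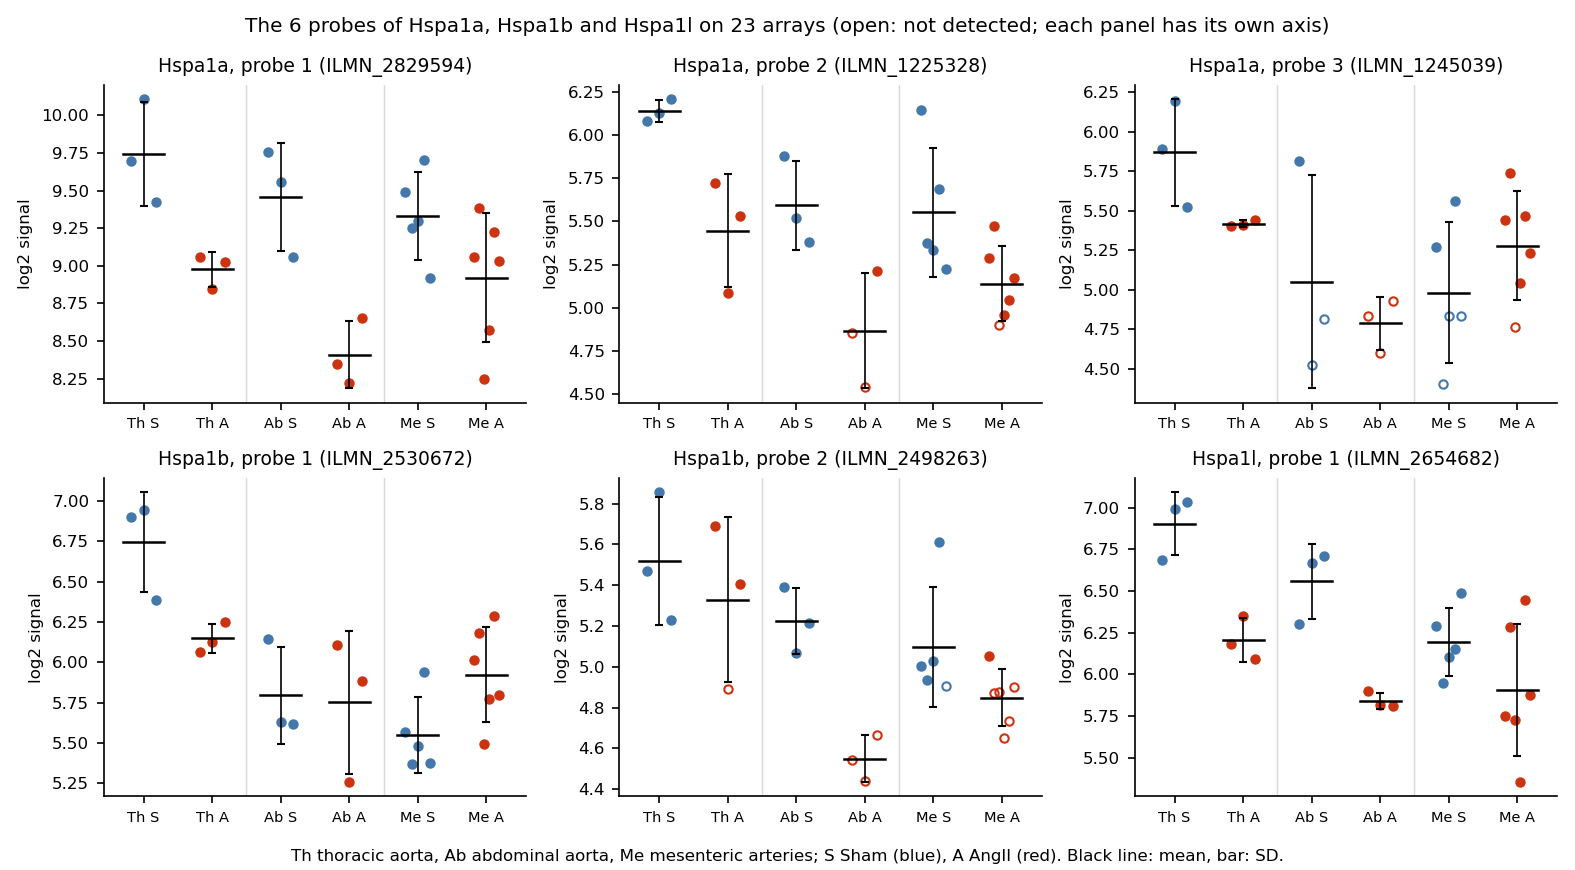
Log2 signal of all 6 probes of Hspa1a, Hspa1b and Hspa1l (vertical axis, one scale per panel) on the 23 arrays by vessel and treatment (abbreviations as in the plot of all members); open points were not above background, lines are means and bars SDs. The bright and the second Hspa1a probe and the Hspa1l probe stand lower with AngII in both aortic segments, whereas the 2 Hspa1b probes differ in the abdominal aorta.

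The abdominal calls depended on single arrays. With abdominal Sham array 1, the array with skeletal muscle RNA, left out, Hspa1a differed by -0.90 (adjusted p = 0.143) and Hspa1l by -0.85 (adjusted p = 0.0696). Neither was called without AngII array 1 (adjusted p = 0.116 and 0.0953), AngII array 2 (0.133 and 0.137) or Sham array 2 (0.138 and 0.15). Over the 6 arrays left out in turn, the Hspa1a difference ranged from -1.25 to -0.90 and the Hspa1l difference from -0.85 to -0.64. Without AngII array 3 or Sham array 3, Hspa1a alone was called (-1.17, adjusted p = 0.0184, and -1.25, adjusted p = 0.0463) and Hspa1l was not (-0.70, adjusted p = 0.0528, and -0.64, adjusted p = 0.131). With the authors' own normalised values, neither passed the test (Hspa1a -0.79, adjusted p = 0.115, and Hspa1l -0.21, adjusted p = 0.128). In the thoracic aorta, Hspa1a and Hspa1l passed the test whichever array was left out. Hspa1b did not without AngII array 1 (-0.56, adjusted p = 0.0776), AngII array 2 (-0.59, adjusted p = 0.0535), Sham array 1 (-0.52, adjusted p = 0.0795) or Sham array 2 (-0.50, adjusted p = 0.0888). The authors' values kept the 3 thoracic calls but gave smaller changes of the dim probes (Hspa1l -0.30, Hspa1b -0.25), and called Dnajb1 (-0.32, adjusted p = 0.0297) and Bag3 (-0.15, adjusted p = 0.0498) as well.

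Markers of cell types moved with treatment in the same arrays. In the thoracic aorta 5 of 6 fibroblast markers, 3 of 5 macrophage markers and 2 of 5 white adipocyte markers rose and 2 of 6 smooth muscle markers fell, where 17.3% of all tested transcripts were called. Also called there were 1 of 6 brown adipocyte, 1 of 6 pancreatic and 1 of 2 mesothelial markers, each higher. So were 2 of 3 nerve markers (1 higher and 1 lower) and 1 of 5 endothelial markers. No skeletal muscle, heart muscle, red blood cell or lymphocyte marker was called. The summed signal of the fibroblast list was 27912 to 31091 with AngII and 20068 to 20647 in Sham, that of the macrophage list 2635 to 4394 and 1976 to 2396, and that of the smooth muscle list 41760 to 43512 and 46939 to 49954. In the abdominal aorta 2 of 6 fibroblast markers, 1 of 5 macrophage markers and 1 of 6 pancreatic markers rose, where 1.09% of all tested transcripts were called. The fibroblast sums were 31584 to 33609 against 25175 to 26646, and the macrophage sums 3943 to 5479 against 2527 to 2985. There the smooth muscle sum was 42132 to 46337 with AngII and 46754 to 48440 in Sham, again without overlap, with 0 of its 6 markers called. The part of these cells in the changes of the Hsp70 genes was not tested. The brown adipocyte list had a mean log2 signal of 9.17 to 9.56 with AngII and 8.38 to 9.33 in Sham in the thoracic aorta, and of 8.83, 8.17 and 5.73 on the abdominal AngII arrays 1, 2 and 3 against 6.22 to 6.80 in Sham. With this mean as a covariate, thoracic Hspa1a, Hspa1l and Hspa1b differed by -0.81, -0.53 and -0.76 (adjusted p = 0.094, 0.0947 and 0.0709) and abdominal Hspa1a and Hspa1l by -0.91 and -0.76 (adjusted p = 0.109 and 0.0841). Without the covariate the differences were -0.77, -0.70 and -0.60, and -1.05 and -0.72. In the thoracic aorta the covariate was itself mostly higher with AngII, so a fit on few arrays cannot separate it cleanly from treatment.

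In mesenteric arteries no member was called, where 0.34% of all tested transcripts were, and for 0 of 10 genes were the groups apart, against 2.52% of all tested transcripts. At an unadjusted p under 0.05, limma counted 2 of 10 genes higher and 1 lower, against 7 higher and 8 lower of 113 genes in the related lists below. With the authors' values 0 members were called. Hspa1a had a lowest, median and highest log2 signal of 8.25, 9.05 and 9.39 on the 6 AngII arrays and 8.92, 9.30 and 9.70 on the 5 Sham arrays. The groups overlapped widely, with a difference of -0.41 (95% interval -0.82 to -0.0031, adjusted p = 0.316). Hsph1 read 8.74, 9.15 and 9.59 with AngII against 8.44, 8.71 and 8.86 in Sham. Its highest AngII arrays exceeded every Sham array while the lowest did not, and the difference was 0.45 (0.15 to 0.75, adjusted p = 0.14).

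The bright Hspa1b probe stood higher with AngII in this vessel, at 5.49, 5.91 and 6.28 against 5.37, 5.48 and 5.94 in Sham. The arrays overlapped, with a difference of 0.38 (0.07 to 0.68, adjusted p = 0.224). The dim second Hspa1b probe went the other way, with a mean of 4.85 with AngII against 5.10 in Sham. It was above background on 1 of 6 AngII and 4 of 5 Sham arrays. Hspa1l read 5.35, 5.81 and 6.45 with AngII against 5.95, 6.15 and 6.49 in Sham. Its groups overlapped too (-0.29, SE 0.17, adjusted p = 0.441). The 3 probes of Hspa8 read apart from each other, with differences of 0.02, 0.42 and -0.34 (adjusted p = 0.959, 0.196 and 0.317), and the third Hspa1a probe (0.30) went against the first (-0.41) and the second (-0.41). Without the 3 arrays with a high Try4 signal, Hspa1a differed by -0.52 (adjusted p = 0.351) and Hspa1b by 0.29 (adjusted p = 0.534), and still no member was called. The median member difference was 0.07, against -0.0041 for all tested transcripts.

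**Figure D3:**
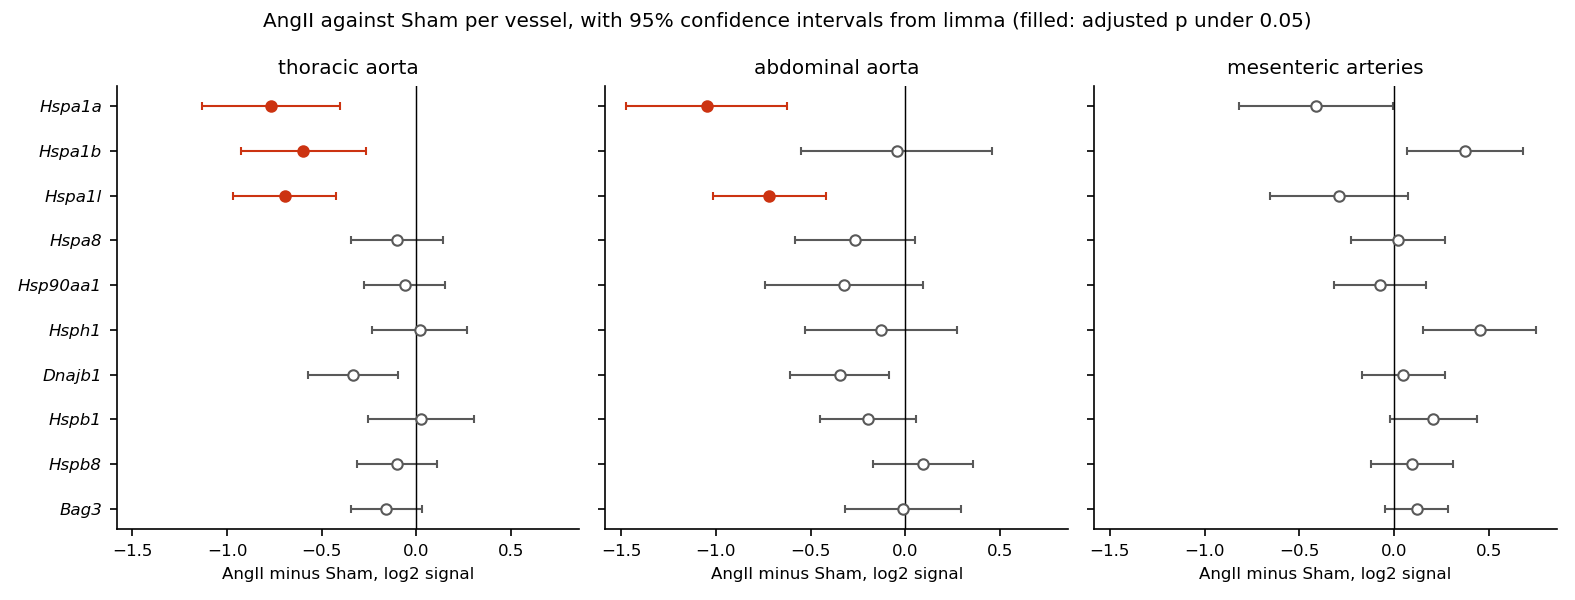
AngII minus Sham difference in log2 signal (horizontal axis) of the brightest probe of each member in each vessel, with 95% confidence intervals from limma; filled points passed an adjusted p of 0.05. The filled points are Hspa1a, Hspa1b and Hspa1l in the thoracic aorta and Hspa1a and Hspa1l in the abdominal aorta, all lower with AngII.

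Across the 3 vessels together, with vessel as a covariate, Hspa1a was 1.59-fold lower with AngII (-0.67, SE 0.13, adjusted p = 0.00305) and Hspa1l 1.42-fold lower (-0.51, SE 0.11, adjusted p = 0.00446). They were the 2 members called of 10, both lower, where 10.7% of all tested transcripts were called and 5.27% were lower. Of the 17 tested member probes 4 were called, all lower. The second probe of Hspa1a fell by 0.57 (adjusted p = 0.00255), whereas the bright Hspa1b probe (0.01, adjusted p = 0.971) and the third Hspa1a probe (-0.05, adjusted p = 0.885) did not pass the test. The dim second Hspa1b probe had lower means with AngII in each vessel (thoracic 5.33 against 5.52, abdominal 4.55 against 5.22, mesenteric 4.85 against 5.10). The Hspa1a and Hspa1l calls were made whichever array was left out, and with the authors' values too (-0.56, adjusted p = 0.00367, and -0.18, adjusted p = 0.0146).

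Whether AngII acted differently between vessels was tested on the differences themselves. Between thoracic aorta and mesenteric arteries the effect on Hspa1b differed by -0.97 (SE 0.27, 95% interval -1.53 to -0.41, limma, adjusted p = 0.0213), from a fall in the former to a higher mean in the latter. It was the 1 member called of 10, with a lower difference, where 11.4% of all tested transcripts were called and 5.99% were lower. The call was lost without thoracic AngII array 1 (adjusted p = 0.0545), thoracic Sham array 1 (0.0644) or thoracic Sham array 2 (0.0696) and made without each other array, and the second Hspa1b probe gave 0.06 (adjusted p = 0.905). Without mesenteric AngII array 3, Dnajb1 was called as well (-0.44, adjusted p = 0.0476, against -0.38 and 0.115 with all arrays). The authors' values gave -0.40 (adjusted p = 0.0117) for Hspa1b.

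Between the 2 aortic segments no member was called for a difference in AngII effect (0.452% of all tested transcripts were called, and 0 members had an unadjusted p under 0.05 in limma). The difference was 0.28 (SE 0.35) for Hspa1a and 0.02 (95% interval -0.56 to 0.60) for Hspa1l, so differences close to the size of the AngII effects themselves were within the error. Between abdominal aorta and mesenteric arteries 0 of 10 were called (1.85% of all tested transcripts). In limma 4 of 10 had an unadjusted p under 0.05, all lower, against 2 higher and 8 lower of 113 genes in the related lists below. All 10 differences were negative, from -0.64 for Hspa1a to -0.00077 for Hspb8. All 3 contrasts share arrays. The authors' values called 0 members in either of these contrasts.

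On single arrays, Hspa1a moved most closely with Hspa1b and Dnajb1. Over the 23 arrays, after the mean of each array's own group was taken out, the bright Hspa1a probe correlated with Hspa1b at r = 0.76, with Dnajb1 at 0.73 and with Hspb1 at 0.56, and Hspa1b with Dnajb1 at 0.68. Hspa1a correlated less with Hspa8 (0.31), Hspa1l (0.25), Hsph1 (0.25) and Bag3 (0.21), and at -0.26 with Hsp90aa1. Hspa8 and Hsph1 correlated at 0.65, and Hspa1l and Hsp90aa1 at -0.47. Of the 45 pairs of members 8 were over 0.5 and 10 under 0, with a median of 0.25. These are descriptions over 23 arrays that share vessels and scans. Of 10954 genes ranked in this way, those most like Hspa1a were Csrnp1 (0.83), Abra (0.83), Golga1 (0.82), Asb2 (0.80) and Prdm4 (0.79), and with only the vessel means taken out Klk10 (0.81), Clstn1 (0.80), Atf3 (0.80), Klhl10 (0.80) and Sema3f (0.79).

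The wider chaperone network was read from 9 lists with 113 tested genes, of which 22 were immediate early and stress genes rather than chaperones. In the thoracic aorta 17.3% of all tested transcripts were called and 8.62% were called lower, against which each list is read. Of 16 other cytosolic Hsp70, Hsp110 and Hsp40 genes 3 fell and 0 rose: Dnajc7 (-0.47, adjusted p = 0.0096), a cochaperone that binds both Hsp70 and Hsp90, Dnajb5 (-0.46, adjusted p = 0.032), a relative of Dnajb1, and Hspa2 (-0.36, adjusted p = 0.0381), an Hsp70 of germ cells and other tissues. Of 15 other Hsp90 genes and cochaperones 4 fell, among them the immunophilin Fkbp4 (-0.50, adjusted p = 0.00577), the myosin chaperone Unc45a (-0.36, adjusted p = 0.029) and Nudc (-0.36, adjusted p = 0.0298), and 1 rose, the striated muscle myosin chaperone Unc45b (0.54, adjusted p = 0.00569). The medians of these lists were -0.10 and -0.19, against -0.02 for all tested transcripts.

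Of the 4 other small heat shock proteins tested, Hspb6, which is abundant in smooth muscle and is phosphorylated when it relaxes, fell by 0.48 (adjusted p = 0.0126) and the other 3 did not pass. Of 10 nucleotide exchange and ubiquitin partners of Hsp70, Bag6 fell by 0.33 (adjusted p = 0.0325), while Bag1, the brightest, differed by 0.04 (adjusted p = 0.776). None of 13 chaperonin and prefoldin genes was called in limma, and 0 had an unadjusted p under 0.05 (0 with the authors' values). In the mitochondrial list 1 of 14 rose, Dnajc15 (0.56, adjusted p = 0.00895), and in the endoplasmic reticulum list 1 of 16 rose, Sdf2l1 (0.35, adjusted p = 0.0346), with Serpinh1, the collagen chaperone, at 0.18 (adjusted p = 0.234). In the endoplasmic reticulum list 6 genes were higher and 0 lower at an unadjusted p under 0.05, against 19 higher and 25 lower of the 113 list genes. On the authors' values 3 of this list were called, against 31 of the 113. Of the heat shock factors and their regulators 3 were tested, and Hsf2 rose by 0.45 (adjusted p = 0.0278) from a dim signal, a call that was not made on the authors' values. With the normalisation used here, these counts of 0 or 1 called gene per list are below the share of all tested transcripts called in either direction, except in the lists of 3 heat shock factors and 4 small heat shock proteins, where 1 gene is the whole count.

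In abdominal aorta and in mesenteric arteries none of the 113 genes was called in limma, with 4 higher and 12 lower, and 7 higher and 8 lower, at an unadjusted p under 0.05. The immediate early and stress genes made up 3 of the higher and 4 of the lower genes in abdominal aorta. In mesenteric arteries they made up 1 higher and 2 lower. With the authors' values 0 and 2 were called. Fkbp4 differed by -0.49 in the abdominal aorta (adjusted p = 0.0728), close to its thoracic value, and Hspb6 by 0.36 in mesenteric arteries (adjusted p = 0.061), against its fall in the thoracic aorta. Of the 4 other small heat shock proteins 3 were higher in mesenteric arteries at an unadjusted p under 0.05. Over the 3 vessels 2 of them were called, both higher, against 10.7% of all tested transcripts. For the thoracic minus mesenteric effect 1 was called, lower, against 11.4%.

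**Figure D4:**
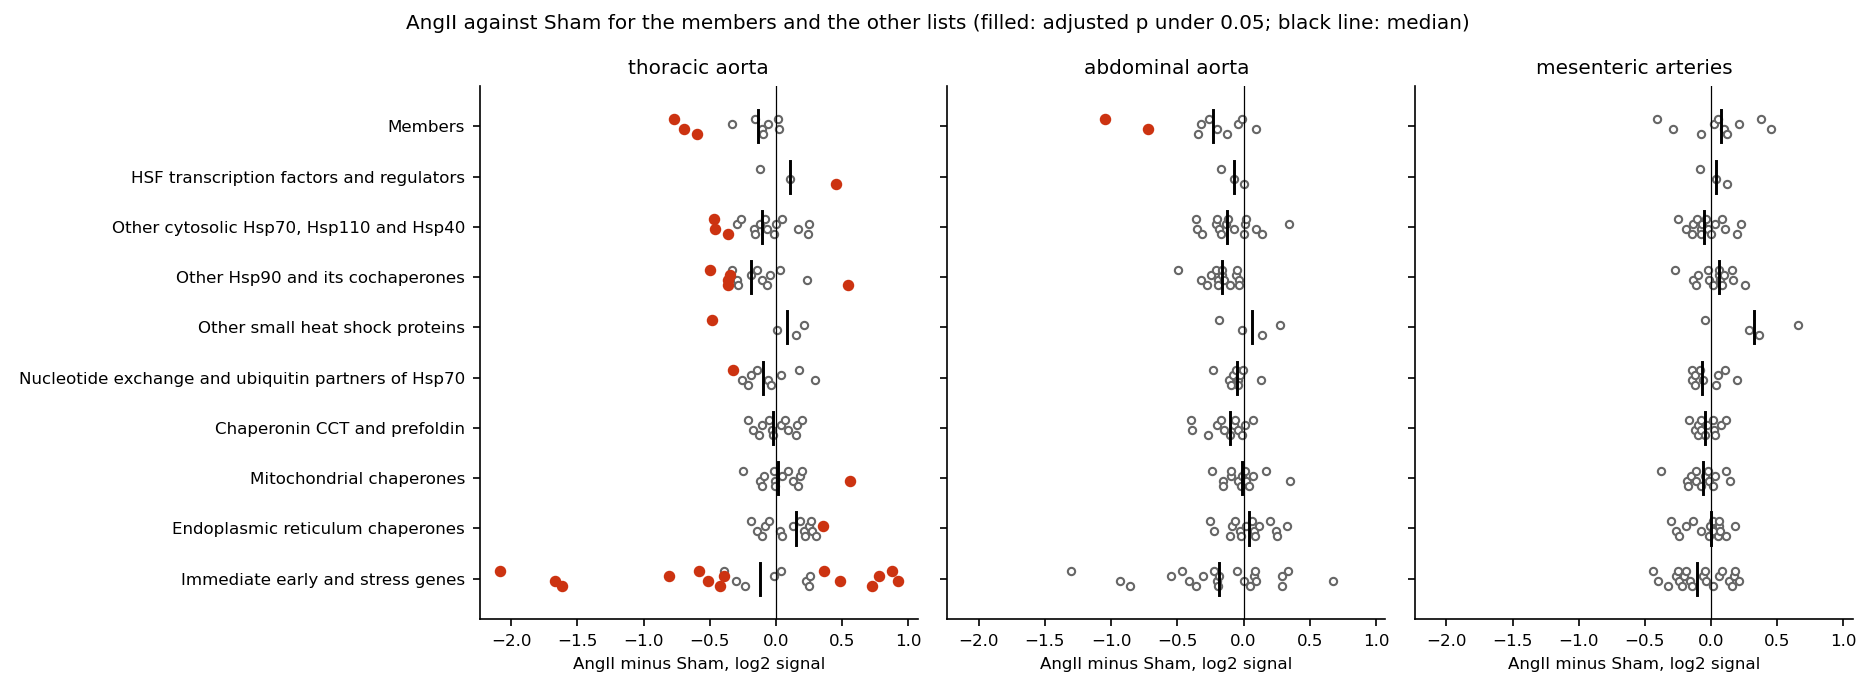
AngII minus Sham difference in log2 signal (horizontal axis) of each tested gene of the members and of 9 related lists (rows) in each vessel; filled points passed an adjusted p of 0.05 and black lines are medians. Filled points of the chaperone lists occur in the thoracic aorta, mostly below 0, and in the abdominal aorta only among the members.

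The list with the widest spread was that of immediate early and stress genes, which are switched on within minutes by growth factors, stretch or injury. In the thoracic aorta 8 of 22 fell and 6 rose, where 8.62% of all tested transcripts were called lower and 17.3% in either direction. Fosb fell by 2.09 (adjusted p = 0.000316), Fos by 1.62 (adjusted p = 0.000355) and Atf3 by 1.67 (adjusted p = 0.00202), and Egr2 rose by 0.88 (adjusted p = 0.00192). Fos read between 9.10 and 9.41 with AngII and between 10.60 and 11.21 in Sham in the thoracic aorta, and between 10.34 and 11.08 against 11.55 and 11.56 in the abdominal aorta. In both segments its AngII arrays lay below its Sham arrays, as those of Hspa1a did, and in the abdominal aorta its difference was -0.86 (adjusted p = 0.0532). Egr1, the brightest of the list, differed by -0.42 (adjusted p = 0.0451) in the thoracic aorta and by -0.36 (adjusted p = 0.351) in the abdominal aorta.

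Sham levels differed between vessels, with the aorta above mesenteric arteries for several members. Between thoracic aorta and mesenteric arteries 7 of 10 genes were called, all higher in the aorta, where 51.8% of all tested transcripts were called and 29.2% were higher. By probe 13 of 17 were called, all higher, among them other probes of Hspa1a and Hspa8, whose bright probes were not called. Hsph1 read 10.13, 10.15 and 9.85 in thoracic Sham, 10.01, 9.84 and 9.46 in abdominal Sham and 8.44, 8.71 and 8.86 as lowest, median and highest in mesenteric Sham. No mesenteric array reached an aortic array, and thoracic was 2.54-fold above mesenteric (1.35, SE 0.16, adjusted p = 3.09e-07) and abdominal 2.10-fold above it (1.07, SE 0.16, adjusted p = 1.12e-05). Hspb8 read 11.98, 12.04 and 11.87, then 12.26, 11.97 and 12.05, and in mesenteric Sham 11.09, 11.33 and 11.48. The aortic arrays again stood above all mesenteric arrays, by 0.68 (SE 0.11, adjusted p = 1.16e-05) for thoracic and 0.81 (SE 0.11, adjusted p = 1.5e-06) for abdominal aorta.

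The other thoracic calls were Hspa1b (2.29-fold, adjusted p = 1.61e-05), Hspa1l (1.63-fold, adjusted p = 0.00181), Hsp90aa1 (1.53-fold, adjusted p = 0.00101), Bag3 (1.36-fold, adjusted p = 0.000344) and Hspb1 (1.23-fold, adjusted p = 0.041). The Hspb1 call was lost without mesenteric Sham array 3 (0.31, adjusted p = 0.0534), 4 (0.27, 0.0825) or 5 (0.25, 0.0976) and without thoracic Sham array 1 (0.26, 0.144) or 2 (0.23, 0.184). Without mesenteric Sham array 1 all 7 thoracic calls were made again, with 1.35 for Hsph1, 0.64 for Hspb8, 0.73 for Hspa1l, 0.66 for Hsp90aa1, 0.41 for Bag3, 0.36 for Hspb1 and an adjusted p of 4.11e-05 for Hspa1b. On the authors' values limma called 4 of 10 members between thoracic and mesenteric Sham, where 89 of the 113 genes of the 9 other lists were called. Hsph1, Hspb8 and Hspa1b were higher in the aorta, and Dnajb1 was lower (-0.26, adjusted p = 0.0151). Hspa1l (-0.03), Hsp90aa1 (0.11), Bag3 (0.05) and Hspb1 (-0.11) did not pass on those values. Between abdominal aorta and mesenteric arteries 4 of 10 were called, all higher in the aorta, where 45.9% of all tested transcripts were called and 24.9% were higher: Hsph1 and Hspb8 as above, Hspb1 (0.70, adjusted p = 4.94e-05) and Bag3 (0.42, adjusted p = 0.000687). By probe 6 of 17 were called there, all higher. Between the aortic segments Hspa1b was higher in the thoracic aorta (0.95, SE 0.22, adjusted p = 0.00413), the 1 call of 10, where 13.8% of all tested transcripts were called and 6.45% were higher, and without abdominal Sham array 1 it was 1.12 (adjusted p = 0.00226). With limma on the authors' values Hspa1b did not pass (0.17, adjusted p = 0.0695). The 3 members called there were Hsph1 (0.43, adjusted p = 0.024), Hsp90aa1 (0.36, 0.0167) and Bag3 (0.27, 0.0163), all higher in the thoracic aorta. Of the 113 list genes 55 were called in that contrast on those values. With the normalisation used here, 2 of 17 member probes were called between the aortic segments, both higher in the thoracic aorta. The second, dim Hspa1b probe had Sham means of 5.52 in thoracic and 5.22 in abdominal aorta. Without abdominal Sham array 1 the abdominal differences from mesenteric arteries were 0.95 for Hsph1, 0.73 for Hspb8, 0.65 for Hspb1 and 0.46 for Bag3, and without mesenteric Sham array 1 they were 1.08, 0.77, 0.76 and 0.39.

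Direction between vessels differed between the normalisation used here and the authors' values for most members, and the cause was not tested. The authors' values, whose median signal lay near 6.77 in thoracic, 7.03 in abdominal and 6.95 in mesenteric arrays, shifted all tested transcripts by a median of -0.28 between thoracic and mesenteric and -0.20 between abdominal and mesenteric arrays, against 0.07 and 0.05 in the normalisation used here. On them Hspa1a (-0.05), Hspa1l (-0.03), Hspa8 (-0.19), Dnajb1 (-0.26) and Hspb1 (-0.11) changed sign between thoracic aorta and mesenteric arteries, and Hspa1a (-0.45), Hspa1b (-0.02), Hspa1l (-0.06), Hspa8 (-0.38), Hsp90aa1 (-0.25), Dnajb1 (-0.51) and Bag3 (-0.22) did between abdominal aorta and mesenteric arteries. In that contrast 6 members were called on the authors' values, Hsph1 higher in the aorta and Hspa1a (adjusted p = 0.04), Hspa8 (0.0138), Hsp90aa1 (0.0488), Dnajb1 (9.09e-05) and Bag3 (0.0253) lower, so that Bag3 was called in opposite directions. On those values 81 of the 113 list genes were called between abdominal aorta and mesenteric arteries. Less the median of all tested transcripts, all 10 members were above mesenteric arteries in the thoracic aorta under both normalisations, from 0.09 (Dnajb1) to 1.27 (Hsph1) here and from 0.02 to 1.07 for the same genes on the authors' values. In the abdominal aorta 10 were above under the one and 5 under the other. Hsph1 and Hspb8 kept their sign and stood above mesenteric arteries in both aortic segments on either scale (Hsph1 0.78 and 0.36, Hspb8 0.31 and 0.17 on the authors' values, where the abdominal Hspb8 difference did not pass the test).

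**Figure D5:**
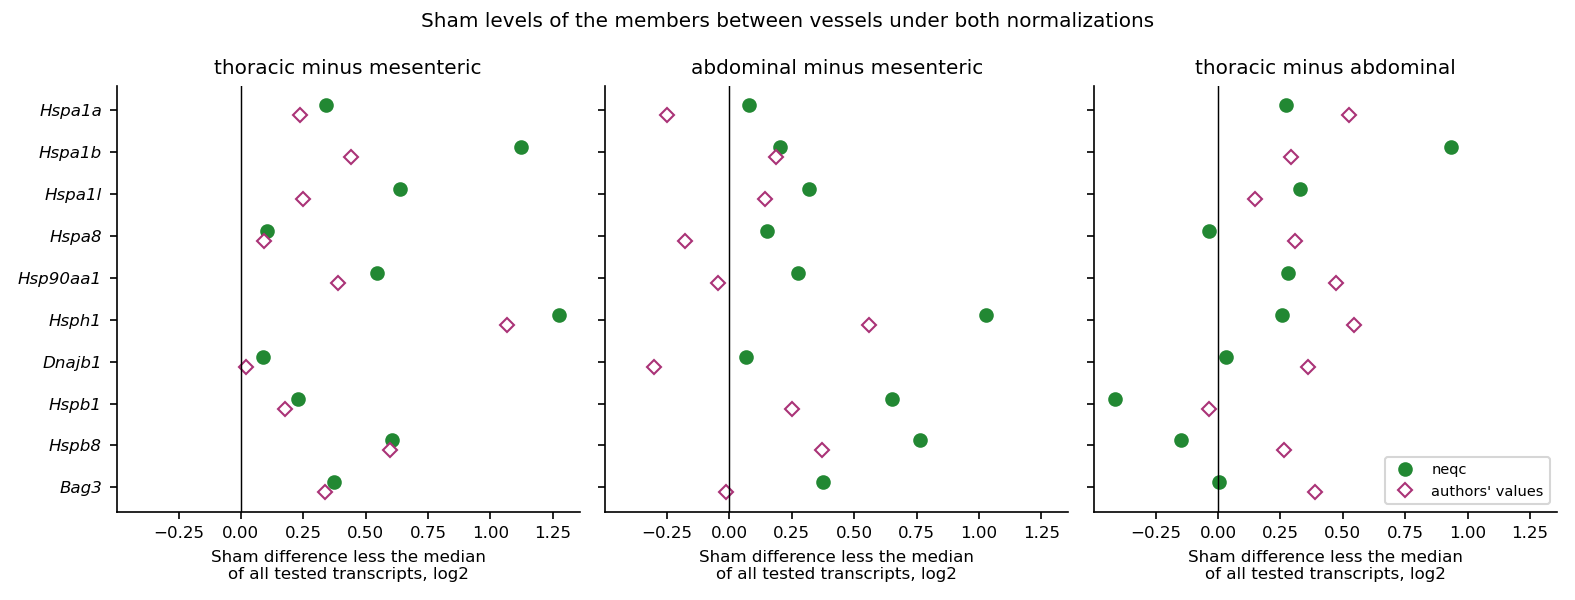
Difference in Sham log2 signal between vessels, less the median difference of all tested transcripts (horizontal axis), for each member under the normalisation used here (green circles, neqc) and on the authors' values (open purple diamonds). All 10 members lie above 0 under both in the thoracic against mesenteric panel, and Hspa1a, Hspa8, Hsp90aa1, Dnajb1 and Bag3 fall on opposite sides of 0 in the abdominal against mesenteric panel.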

How the data were processed

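Signals came from one table of all 23 arrays. The deposited values were summarised bead intensity signals per probe with a detection p-value per array, without normalisation, per the file headers. The authors also deposited log2 values of the same arrays, made with the lumi package and robust spline normalisation in R 3.0.2 per the submitters' processing notes. They were used as an alternative. Columns of the signal table could be linked to a group but not to a single sample, so array numbers follow the table and pair nothing.

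Signals were background-corrected and quantile-normalised with neqc of limma 3.58.1 (R 4.3.3, offset 16), which infers negative controls from the detection p-values. The tests covered 20585 of 45281 probes, those whose detection p-value fell under 0.01 on 3 or more arrays. A limma fit was made per vessel, one over the 3 vessels with vessel as a covariate, and one over 6 group means for differences in effect and for Sham levels. Calls used a Benjamini-Hochberg adjusted p of 0.05 over 20585 transcripts. A gene stood for its probe with the highest mean signal. Gene names came from the platform annotation, in which 34885 probes had 1 symbol, 18 had several and 10378 had none. No probe sequence was used here.

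The members and all gene lists were chosen with earlier results of these data known. All members were named, and from each list the genes with the smallest adjusted p and the brightest gene. The number of arrays limits the precision. The fits were tested on simulated data. Alternatives were the authors' values, cyclic loess, neqc within each vessel, no further background correction, an offset of 50, other detection filters, a prior that follows the signal, a single fit over 6 groups, a replicate block, brown adipocyte markers as a covariate, and each array left out. Subtraction of the median Sham difference of all tested transcripts was chosen after seeing the data.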

Additional observations from a re-analysis of the deposited data

Results flagged for a closer look

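Among 34 combinations of a tested probe with a mesenteric group, 1 array lay far from the rest of its group, where about 1.7 such arrays would arise by chance at the 95% critical value. It was mesenteric Sham array 4 for the dim second probe of Hspa1b, with a log2 signal of 5.61 against 5.03 for the next highest Sham array, a gap that spans 0.824 of the group's range.

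For the bright probe of Hspa1b, the AngII effect in thoracic aorta less that in mesenteric arteries was -0.97 on the log2 scale in the test of the difference itself (limma, adjusted p = 0.0213), with a fall in the thoracic aorta and a higher mean in mesenteric arteries. The dim second probe had lower means with AngII in both vessels (5.33 against 5.52 in thoracic aorta, 4.85 against 5.10 in mesenteric arteries).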

How the results depend on the processing

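Each gene value was recomputed under every alternative that applied, 2300 values for 100 results. Of these 2153 kept direction and side of the threshold, 46 lost the call, 16 gained it and 85 changed sign, in 28 results, 3 of them among the 20 called. Counts of called members moved as follows. The authors' values gave 5 in thoracic aorta, 0 in abdominal aorta, and in Sham 3 between aortic segments, 4 between thoracic aorta and mesenteric arteries and 6 between abdominal aorta and mesenteric arteries (5 of them lower in the aorta). Of the 113 genes of the 9 other lists they called, in the same order, 31, 0, 55, 89 and 81. In abdominal aorta cyclic loess gave 1, no filter on detection 0, an offset of 50 gave 1 and leaving out 1 array 0 to 1. The effect difference between thoracic aorta and mesenteric arteries gave 0 without a filter and 0 to 2 with 1 array left out. Between aortic Sham segments a filter on every array of a group, an offset of 50 and a prior that follows the signal each gave 2, and leaving out 1 array 1 to 2. With brown adipocyte markers as a covariate 0 were called in either aortic segment. Same-numbered arrays deviated together in some pairs only (correlations -0.529 to 0.855 over 11 pairs, 6 over 0.1), so the numbers were not taken to pair samples, and the authors' values with a replicate block gave 0 called in abdominal aorta and Hspa1b at an adjusted p of 0.0635 in thoracic aorta. Thoracic Hspa1b also lost its call without a filter (0.0692) and in the single fit (0.0679).

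Sign changes on the authors' values were, for the thoracic minus abdominal effect, Hspa1l -0.090 and Dnajb1 -0.0023, for thoracic minus abdominal Sham levels, Hspa8 0.19 and Hspb8 0.15, for thoracic minus mesenteric Sham levels, Hspa1a -0.046, Hspa1l -0.034, Hspa8 -0.19, Dnajb1 -0.26 and Hspb1 -0.11, and for abdominal minus mesenteric Sham levels, Hspa1a -0.45, Hspa1b -0.016, Hspa1l -0.062, Hspa8 -0.38, Hsp90aa1 -0.25, Dnajb1 -0.51 and Bag3 -0.22. Cyclic loess turned abdominal Hspa1b (0.018) and Bag3 (0.013) and the abdominal minus mesenteric effect on Hspb8 (0.019). An offset of 50 turned Hspa1b over the 3 vessels (-0.0088) and the aortic effect difference of Hspa1l (-0.019), and the replicate block turned mesenteric Hspa8 (-0.0036). The brown adipocyte covariate turned thoracic Hsph1 (-0.13) and Hspb1 (-0.16) and abdominal Hspa1b (0.0040) and Bag3 (0.11). With 1 array left out, values that crossed 0 ranged, for AngII, from -0.081 to 0.072 (Hsph1) and -0.092 to 0.092 (Hspb1) in thoracic aorta, from -0.22 to 0.20 (Hspa1b) and -0.14 to 0.060 (Bag3) in abdominal aorta, from -0.049 to 0.11 (Hspa8) and -0.0050 to 0.11 (Dnajb1) in mesenteric arteries, and from -0.037 to 0.068 (Hspa1b) and -0.014 to 0.029 (Bag3) over the vessels. Effect differences ranged from -0.087 to 0.15 (Hspa1l) and -0.063 to 0.11 (Dnajb1) between aortic segments, from -0.038 to 0.072 (Hsp90aa1, thoracic minus mesenteric) and from -0.061 to 0.084 (Hspb8, abdominal minus mesenteric). Sham differences ranged from -0.046 to 0.0093 (Hspa8), -0.00059 to 0.10 (Dnajb1) and -0.015 to 0.091 (Bag3) between aortic segments and from -0.026 to 0.32 (Hspa1a) between abdominal aorta and mesenteric arteries. The causes were not tested. Probes near background, such as the second probes of Hspa1a and Hspa1b, limit the fold changes that can be read, since the offset understates them.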
